A study of Mus musculus with 4 samples.

Results

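The cytochrome P450 genes of the mouse caecum were examined on 4 Affymetrix arrays. Members were all genes with a probe set of 1 symbol whose symbol is Cyp followed by a family number, a subfamily letter and a gene number, with 1 gene left out by the rule. This gave 89 genes of 22180, represented by 93 probe sets, and where a gene had several, the one with the largest average of its 4 values stood for it. All mice were C57Bl/6 and 21 weeks old, and all groups ate the n-3 PUFA depleted-diet (D08041806), including the animals called controls here. The groups were wild-type mice (WT) and apoE knock-out mice (apoE KO), each without or with the prebiotic Orafti P95 at 250 mg per mouse and day over the last 15 days. Each group was 1 array of RNA pooled from the caecal tissue of 6 mice, which had been picked for the quality of their RNA, so the spread between mice is not visible. The labels name neither the allele nor the source of the apoE line.

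The title and the description of each WT array name opposite diets. The source and treatment labels go with the title, but which is right was not settled. WT arrays are therefore called by their titles (WT titled without, WT titled with), and every result that needs their diet is marked. For KO, all labels give the same diet. Apoe read 3.90 and 4.09 log2 units in WT (titled without, titled with) and 2.83 and 3.13 in KO (without, with prebiotics), a KO minus WT difference of -1.02 that limma did not call (adjusted p = 0.78); both KO values lie below both WT values, and the position of this probe set relative to the deletion is not given. The array medians were 2.99 to 3.01, and the arrays correlated at 0.984 to 0.988 over genes, which are not independent replicates. The tissue label was checked on 10 markers of caecal and colonic epithelium, of which 10 were expressed, with list means of 10.4 to 10.7. Of 10 hepatocyte markers, a check for liver RNA in a gene family best known from liver, 1 was expressed (Ttr), while albumin (Alb) lay between 2.86 and 3.49.

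Cytochromes P450 are haem enzymes that insert an oxygen atom into lipids, steroids, vitamins, bile acids, drugs and plant compounds. Those in the endoplasmic reticulum receive electrons from P450 oxidoreductase and cytochrome b5. In the gut epithelium they act on diet and microbial compounds and on the animal's own fatty acids. Several are induced through the nuclear receptors CAR (Nr1i3) and PXR (Nr1i2) or the aryl hydrocarbon receptor (Ahr).

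The genes on which the prebiotic comparison turns lie mostly in tandem gene clusters, so the promoter sequences available for them are shown first, with that of Cyp2c55 as a strongly detected gene that was not called. RefSeq promoters (GRCm38.p6) were matched for 69 of the 89 members and for 5 of the 6 genes that were called; Cyp2d34 is named only. Each line gives the 250 bases before the transcription start, 5' to 3' on the gene's own strand; Cyp4f14 has 4 listed starts and the first is shown. Capitals mark the CCAAT box (CCAAT, or ATTGG where it is on the other strand), the core of the aryl hydrocarbon receptor element (GCGTG, or CACGC on the other strand) and, on the gene's strand only, the TATA box TATAAA.
Cyp4f13, chr17:32947362-32947611, minus strand: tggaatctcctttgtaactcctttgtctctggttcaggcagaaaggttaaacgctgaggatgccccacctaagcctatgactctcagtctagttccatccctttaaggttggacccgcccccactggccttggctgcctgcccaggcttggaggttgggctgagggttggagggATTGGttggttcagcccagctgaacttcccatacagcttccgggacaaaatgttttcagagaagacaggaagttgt
Cyp4f14, chr17:32917357-32917606, minus strand: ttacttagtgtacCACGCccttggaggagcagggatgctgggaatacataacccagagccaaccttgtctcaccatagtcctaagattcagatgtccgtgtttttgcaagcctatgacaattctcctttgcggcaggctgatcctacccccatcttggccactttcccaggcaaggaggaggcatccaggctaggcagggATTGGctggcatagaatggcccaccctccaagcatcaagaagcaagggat
Cyp4f15, chr17:32685409-32685658, plus strand: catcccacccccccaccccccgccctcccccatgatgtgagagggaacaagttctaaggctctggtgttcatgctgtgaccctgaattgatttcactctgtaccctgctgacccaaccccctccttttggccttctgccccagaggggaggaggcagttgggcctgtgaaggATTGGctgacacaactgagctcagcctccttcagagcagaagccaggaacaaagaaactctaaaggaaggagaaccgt
Cyp3a13, chr5:137921620-137921869, minus strand: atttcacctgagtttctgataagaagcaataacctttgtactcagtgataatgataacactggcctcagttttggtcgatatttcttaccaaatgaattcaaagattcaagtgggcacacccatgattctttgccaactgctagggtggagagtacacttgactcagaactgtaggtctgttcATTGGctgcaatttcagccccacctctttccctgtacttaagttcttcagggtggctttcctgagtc
Cyp2d26, chr15:82794246-82794495, minus strand: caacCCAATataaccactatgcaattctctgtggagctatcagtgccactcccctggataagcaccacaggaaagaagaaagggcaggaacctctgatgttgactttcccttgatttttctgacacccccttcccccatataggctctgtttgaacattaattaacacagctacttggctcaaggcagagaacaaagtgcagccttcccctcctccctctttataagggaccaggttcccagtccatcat
Cyp2c55, chr19:39006769-39007018, plus strand: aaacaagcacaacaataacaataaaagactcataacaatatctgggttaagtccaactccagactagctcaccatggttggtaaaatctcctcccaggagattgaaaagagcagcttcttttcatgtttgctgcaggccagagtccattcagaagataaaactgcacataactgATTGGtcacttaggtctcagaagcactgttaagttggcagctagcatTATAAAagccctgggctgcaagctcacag

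CCAAT was found on 1 strand or the other in 5 of these 5 called genes and in Cyp2c55. It stood 78, 76 and 50 bases before the start in Cyp4f15, Cyp4f13 and Cyp4f14, 67 in Cyp3a13 and 246 in Cyp2d26, and 76 in Cyp2c55. Among all 32851 promoter windows of this length, 33.8% hold CCAAT. Of the members with a promoter 28 of 69 do, and of the expressed ones 8 of 13. Here and below, members are counted as genes but the windows are those of 27025 genes, so these shares differ in unit. CCAAT and TATAAA were added after the expression values and sequences were seen. GCGTG was found in 1 of the 5 (Cyp4f14) against 28.2% of all windows, and its longer form TNGCGTG in 0 of 5 against 4.1%. The direct repeat of AGGTCA spaced by 1 base, bound by PPAR, was found in 0 of 69 members against 0.0335% of windows. On the gene's strand TATAAA was found in 0 of the 5 and in Cyp2c55, Cyp2c65, Cyp2c66 and Cyp2e1, against 7.59% of windows. For TNGCGTG, the direct repeat and TATAAA, 0 is the most likely count in sets of these sizes, so it shows no lack. In global alignments over 250 bases, Cyp4f13 and Cyp4f14 were 62.8% identical, Cyp4f14 and Cyp4f15 58.8% and Cyp4f13 and Cyp4f15 58.0%. The median of 91 pairs among expressed or called members was 55.6%. Pairs across subfamilies reached like values, such as Cyp2e1 and Cyp4f14 (61.6%) and Cyp4b1 and Cyp4f14 (59.2%). Cyp4f40, which was not called, was 53.2% identical to Cyp4f14 and 52.0% to Cyp4f13. Cyp2c65 and Cyp2c66 were 83.2% identical. A match is a description of letters and not a binding site.

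Of the 89 members, 17 were expressed and 72 lay near the array median. Expressed means that the average of the 4 arrays reached at least 1 log2 unit above the median of all single-symbol probe sets, a limit of 3.998. All values are log2 RMA values, and a probe set's value is not an amount that can be set against another gene's. The last genes inside the limit were Cyp2d13 and Cyp2e1, with averages of 4.11 and 4.10, and the first outside were Cyp2w1 and Cyp4f16, with 3.93 and 3.57. Across the series 6810 of 22180 genes were expressed by this rule.

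Near background throughout were the enzymes of the steroid hormones (0 of 5 genes expressed), vitamin D (0 of 3) and retinoic acid breakdown (0 of 3). Bile acid and sterol enzymes had 1 of 6 expressed, the oxysterol hydroxylase Cyp39a1, which read 6.17 and 6.34 in KO (without, then with prebiotics) and 6.16 and 6.37 in WT (by title, in the same order). Cyp7a1, which makes the first step of bile acid synthesis in liver, read 2.62 to 2.68, and Cyp27a1, which starts the alternative route, 3.43 to 3.60. The vitamin D 24-hydroxylase Cyp24a1 read 2.58 to 2.85 and the vitamin D receptor (Vdr) read 8.88 to 9.16. The aryl hydrocarbon receptor's classical targets Cyp1a1, Cyp1a2 and Cyp1b1 lay between 2.60 and 2.82 on the 4 arrays, while the receptor itself read 4.92 to 5.42. The CAR target Cyp2b10 read 2.41 to 2.68 and the hepatic and intestinal drug oxidase Cyp3a11 2.53 to 2.82; other probe sets name Cyp3a11 together with close copies, and they read 2.61 to 2.94.

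Expressed were 4 of 21 genes of the epoxygenase subfamilies Cyp2c and Cyp2j, 4 of 16 fatty acid hydroxylases of family 4 and Cyp2u, 7 of 34 genes of the xenobiotic subfamilies, and Cyp20a1, an orphan P450 with no settled substrate (4.38 to 4.70). Within the Cyp2c cluster on chromosome 19, the expressed genes were the first 3 of 13 members in chromosomal order, Cyp2c55, Cyp2c65 and Cyp2c66, and the other 10 read 2.35 to 3.38. In the Cyp2d cluster on chromosome 15, 4 of 9 were expressed (Cyp2d22, Cyp2d34, Cyp2d13, Cyp2d26), and the other 5 read 2.56 to 3.18. In the Cyp4f cluster on chromosome 17, 3 of 8 were expressed (Cyp4f40, Cyp4f14, Cyp4f13). The clusters Cyp2a and Cyp2b on chromosome 7 and Cyp3a on chromosome 5 had 0 of 4, 0 of 5 and 0 of 6; Cyp3a13, the expressed gene of its subfamily, lies apart from that cluster.

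**Figure D1:**
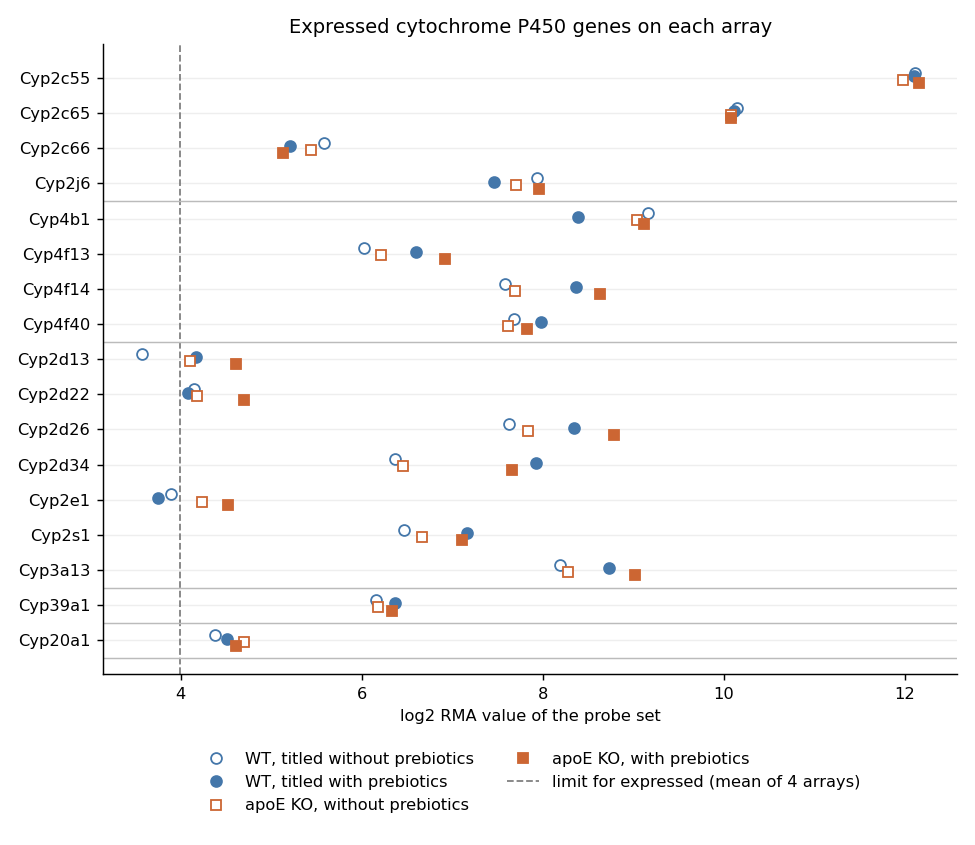
Log2 RMA values of the 17 expressed cytochrome P450 genes on each of the 4 arrays (x axis, log2 units), 1 row per gene, in blocks from top to bottom of epoxygenases, fatty acid hydroxylases, xenobiotic enzymes, Cyp39a1 and Cyp20a1. Circles are WT and squares apoE KO arrays, filled with prebiotics (WT by title), and the dashed line is the limit of 3.998; Cyp2c55 and Cyp2c65 have nearly coincident points, and Cyp2d34 has the widest gap between open and filled points.

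The prebiotic comparison asks how the caecum of either genotype differed when the feed was supplemented. With WT taken by title and both genotypes in 1 model, 6 P450 genes rose and 0 fell: Cyp2d34, Cyp2d26, Cyp4f14, Cyp3a13, Cyp4f13 and Cyp4f15. The test was limma with genotype and prebiotic as terms, 1 residual degree of freedom and Benjamini-Hochberg adjustment over 13083 genes, with calls made below an adjusted p of 0.05. Of all genes tested 0.994% were called higher and 0.26% lower, and of the 6810 expressed genes 1.72% higher and 0.499% lower. Among the 17 expressed members 5 were called higher. With the WT pair exchanged, as the descriptions have it, limma called 0 members and 0 genes in all, and 1 of the 41 members tested had an unadjusted p under 0.05. The calls therefore hold only if the WT titles are right. With eBayes without a trend 1 member was called, Cyp2d34.

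Cyp2d34, of the subfamily that oxidises many basic drugs and alkaloids, read 6.46 without and 7.66 with prebiotics in KO, and 6.36 without and 7.93 with in WT by title; later pairs of values keep this order. Both values with prebiotics lie above both others, by at least 1 log2 unit. Over both genotypes it rose by 1.38 log2 units (SE 0.12, limma adjusted p = 0.0011), and it was the single member at 2-fold or more in either pair, 2.31-fold in KO and 2.95-fold in WT by title. Its cluster neighbour Cyp2d26 read 7.83 and 8.78 in KO and 7.63 and 8.34 in WT by title, a rise of 0.83 (SE 0.10, limma adjusted p = 0.0056). The groups do not overlap for either gene.

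In the same cluster, Cyp2d13 read 4.10 and 4.61 in KO and 3.57 and 4.17 in WT by title, a difference of 0.56 (limma adjusted p = 0.096) that was not called. Cyp2d22 read 4.18 and 4.70 in KO, but 4.15 and 4.08 in WT by title, and was not called (0.22, limma adjusted p = 0.62). The probe sequences were not used here, and how far a Cyp2d probe set also binds copies of its neighbours was not tested. The near-median members of the cluster, such as Cyp2d9 (2.86 to 3.03) and Cyp2d11 (2.56 to 2.77), stayed at background on all 4 arrays.

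The Cyp4f genes, whose products hydroxylate leukotriene B4 and other fatty acids at or near their terminal carbon, held the other block of risers. Cyp4f14 read 7.70 and 8.63 in KO and 7.59 and 8.37 in WT by title, a rise of 0.86 (SE 0.09, limma adjusted p = 0.0040). Cyp4f13 read 6.21 and 6.92 in KO and 6.03 and 6.60 in WT by title (0.64, SE 0.12, limma adjusted p = 0.039). Both have higher values on both arrays with prebiotics, without overlap.

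Cyp4f15 lay near background without prebiotics, at 2.65 in KO and 2.58 in WT by title, and read 3.23 and 3.55 with them (0.78, limma adjusted p = 0.042). It passed the expression filter only through the arrays on which it is high, so its call is no further support for the others. Cyp4f14, Cyp4f13 and Cyp4f15 lie among the 8 array members of a cluster spanning 23 gene positions. Cyp4f40 in that cluster read 7.62 and 7.82 in KO and 7.68 and 7.98 in WT by title (0.25, limma adjusted p = 0.29) and was not called.

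Cyp3a13, the expressed gene of the drug-oxidising Cyp3a subfamily, read 8.28 and 9.02 in KO and 8.19 and 8.73 in WT by title. It rose by 0.64 (SE 0.09, limma adjusted p = 0.012), with both arrays with prebiotics above both without. Cyp2s1, an extrahepatic P450 of surface epithelia, read 6.67 and 7.11 in KO and 6.46 and 7.17 in WT by title. Its difference of 0.57 (SE 0.12) had a limma adjusted p of 0.058 and did not pass.

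**Figure D2:**
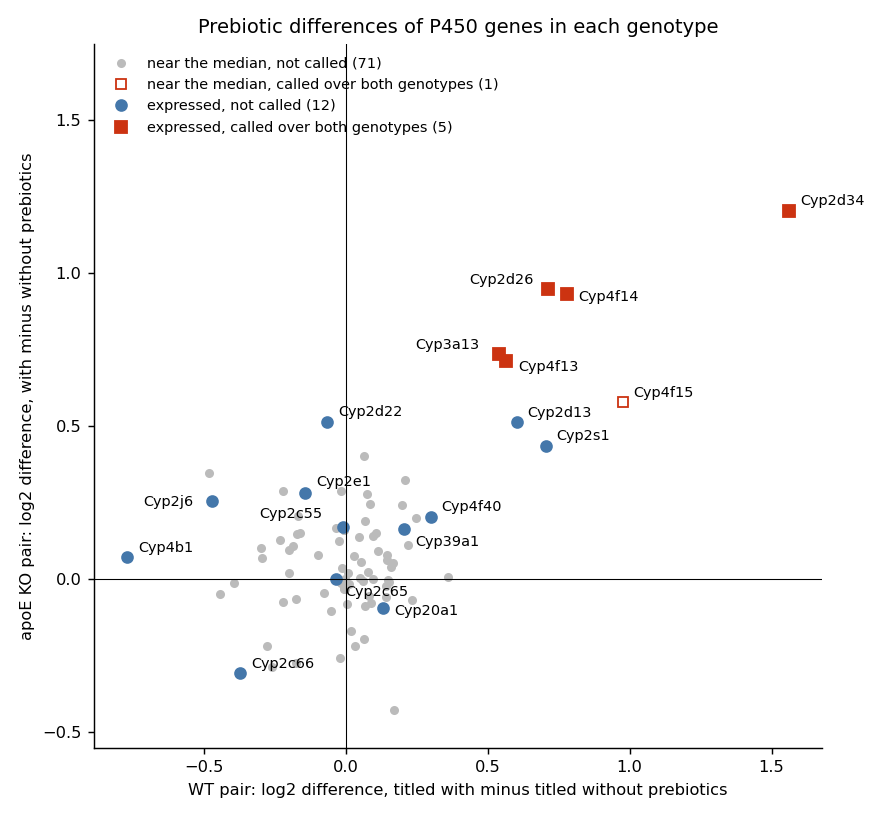
Log2 difference between the array with and without prebiotics for the 89 members, in the WT pair by title (x axis) and in the apoE KO pair (y axis), in log2 units; filled red squares are expressed members called by limma over both genotypes, blue circles other expressed members, the open square Cyp4f15 (near the median, called) and grey points the other near-median members. Cyp2d34 stands at 1.56 and 1.21, Cyp4b1 at -0.77 and 0.07, and the grey points other than Cyp4f15 stay within 0.5 of 0 on both axes.

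The epoxygenases, which turn arachidonic acid into epoxides, gave 0 calls among 4 expressed genes. Cyp2c55, which is prominent in mouse large intestine, read 11.98 and 12.15 in KO and 12.11 and 12.10 in WT by title. Cyp2c65 read 10.08 on both KO arrays and 10.14 and 10.11 in WT by title. On the probe sets used, both genes varied by less than 0.2 log2 units over the 4 arrays. A second Cyp2c55 probe set read 3.44 to 3.86 and was not used. It was higher with prebiotics by 0.42 in KO and 0.16 in WT by title. With the mean over both probe sets the difference of Cyp2c55 was 0.18 (limma adjusted p = 0.48) and was not called.

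Cyp2c66 had lower values on both arrays with prebiotics, 5.44 and 5.13 in KO and 5.58 and 5.21 in WT by title. Its difference of -0.34 (SE 0.13, limma adjusted p = 0.28) did not pass. Cyp2j6 read 7.70 and 7.96 in KO and 7.94 and 7.46 in WT by title, so the pairs differ in sign. Cyp4b1, a family 4 enzyme that acts on short fatty acids and some xenobiotics, read 9.04 and 9.11 in KO, 9.16 on the WT array titled without and 8.39 on the WT array titled with. For Cyp4b1 the WT array titled with prebiotics is low and the other 3 lie close together. Whether the prebiotic differences of these genes differ between genotypes was not tested, since the 4 arrays leave no degree of freedom for it.

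The KO pair alone, whose labels agree, has 1 array against 1 and no test. Of the 17 expressed members 15 were higher with prebiotics, against 57.8% of all expressed genes, with a median log2 difference of 0.28 against 0.04. Cyp2d13 and Cyp2e1, counted among the 15, reach the limit on average only with the KO array with prebiotics (4.61 and 4.52). They are therefore no support for that count. The median of 0.28 is the difference of Cyp2e1 and is limited likewise. Cyp2c65, also counted, read -0.03 after cyclic loess and -0.04 after centring on expressed genes. At 2-fold, 1 was higher and 0 lower, against 0.69% and 0.176% of all expressed genes. At 1.5-fold, a limit chosen after the values were seen, 5 were higher (Cyp2d34, Cyp2d26, Cyp4f14, Cyp3a13, Cyp4f13) and 0 lower, against 3.29% and 1.32%. The lowest differences were those of Cyp2c66 (-0.31), Cyp20a1 (-0.09) and Cyp2c65 (0.00).

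In the WT pair by title, 10 of 17 were higher, against 51.9% of all expressed genes, with a median of 0.21 against 0.01. At 2-fold, 1 was higher and 0 lower, against 0.529% and 0.308%. At 1.5-fold, 5 were higher (Cyp2d34, Cyp4f14, Cyp2d26, Cyp2s1, Cyp2d13) and 1 lower (Cyp4b1), against 2.72% and 1.37%. In both pairs at once 3 were at least 1.5-fold higher, Cyp2d34, Cyp2d26 and Cyp4f14, against 0.778% of all expressed genes. On 9 of 17 both arrays with prebiotics by title lay above both without, against 28.6% of all expressed genes. On 1 (Cyp2c66) both lay below, against 19%. Cyp2d13, counted among the 9 and at 1.5-fold in WT, was below the limit for expressed genes on the WT array titled without. It reached the limit on average through the arrays with prebiotics, so it is no support for those counts. Read by the descriptions, each sign of the WT pair turns.

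Of the 72 near-median members, 24 passed the filter and 1 was called (Cyp4f15). None of the 72 was at 2-fold or more in either pair, and Cyp4f15 alone reached 1.5-fold, in the WT pair by title. Their differences ran from -0.43 to 0.58 in KO and from -0.48 to 0.98 in WT by title.

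**Figure D3:**
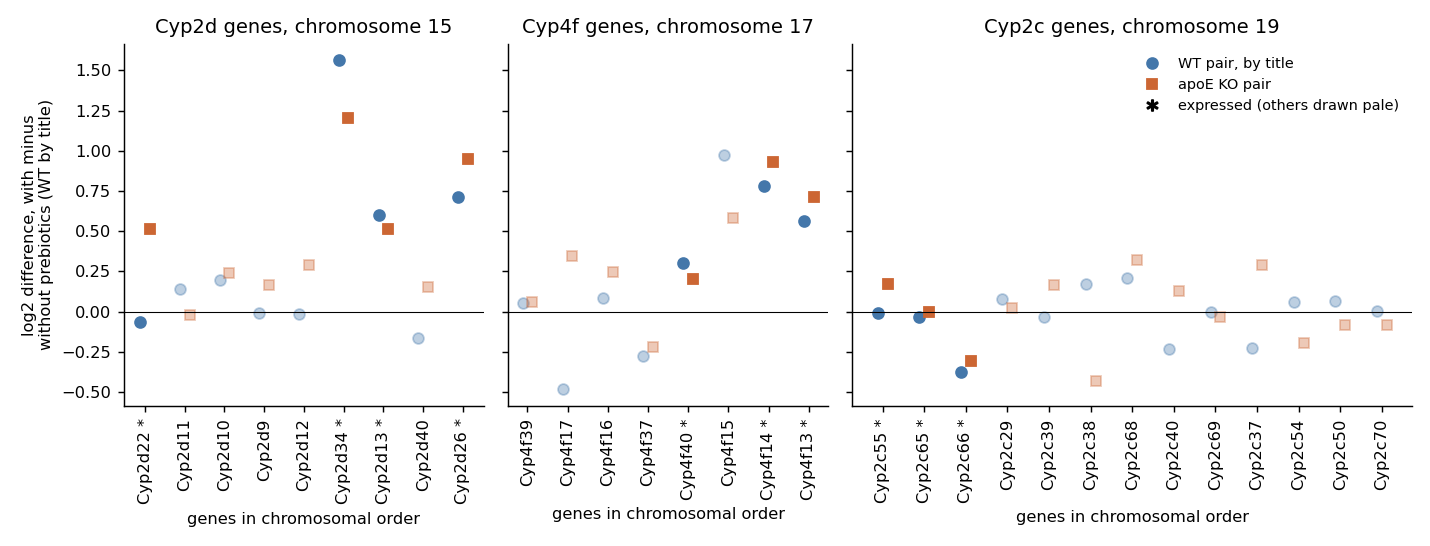
Log2 difference with minus without prebiotics (y axis) for the members of the Cyp2d, Cyp4f and Cyp2c clusters, placed in chromosomal order (x axis, equal spacing), as blue circles for the WT pair by title and orange squares for the apoE KO pair; an asterisk marks expressed genes and the others are drawn pale. Cyp2d34, Cyp2d13, Cyp2d26, Cyp4f15, Cyp4f14 and Cyp4f13 stand above 0.5 in both pairs, and the 3 expressed Cyp2c genes stand between -0.37 and 0.17.

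Genes that serve or control P450 enzymes were taken as lists. Their counts stand beside 0.994% of all genes tested called higher and 0.26% called lower. Of 16 xenobiotic and nuclear receptors 15 were tested and 1 rose, the constitutive androstane receptor Nr1i3. It read 3.02 and 3.94 in KO and 3.31 and 4.004 in WT by title, a rise of 0.81 (limma adjusted p = 0.029), from values near background. The pregnane X receptor Nr1i2 read 6.51 and 7.05 in KO and 7.11 and 6.57 in WT by title, opposite in the pairs (0.00, limma adjusted p = 0.9997). Hnf4a, a factor of gut and liver epithelium, read 9.31 and 9.58 in KO and 9.19 and 9.41 in WT by title (0.24, limma adjusted p = 0.16). Ppara read 4.02 to 4.31 and was not called.

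P450 oxidoreductase (Por) had no probe set used here, so its level is not known. Of the redox partners 4 of 8 names had one (Cyb5a, Cyb5b, Cyb5r3 and Fdx1), and 0 of these 4 were called. The nearest was Cyb5r3, the reductase of cytochrome b5, with 8.98 and 9.25 in KO and 8.66 and 9.11 in WT by title (0.36, limma adjusted p = 0.080). Of 11 haem genes tested 0 were called: Alas1, which sets the rate of haem synthesis, read 8.78 to 9.06, and haem oxygenase Hmox1 read 5.08 on the WT array titled without and 3.11 to 3.85 on the other 3. Of 3 epoxide hydrolases tested 0 were called; Ephx2, which hydrolyses fatty acid epoxides, read 5.74 and 6.61 in KO and 5.79 and 6.04 in WT by title (0.56, limma adjusted p = 0.14). Of the P450 genes with another form of name, the sterol demethylase Cyp51 read 7.45 to 7.66 and was not called, and prostacyclin synthase Ptgis lay at 3.02 to 3.27.

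Some epithelial markers were also called on the same arrays. The counts below stand beside 0.994% of all genes tested called higher and 0.26% called lower. Of 10 markers of caecal and colonic epithelium 2 rose over both genotypes by title, the chloride exchanger Slc26a3 (0.58, limma adjusted p = 0.00081) and the carbonic anhydrase Car4 (0.59, limma adjusted p = 0.023). The list mean was 10.38 and 10.66 in KO and 10.41 and 10.59 in WT by title. In each pair 8 of the 10 were higher with prebiotics, but general epithelial markers did not move together. Krt8 was lower in both pairs (-0.05 in KO, -0.09 in WT by title). Epcam (0.23 and -0.07) and Cdh1 (-0.05 and 0.08) differed in sign between the pairs. Of 9 tested small intestinal enterocyte markers 3 rose, the bile acid transporter Slc10a2 (2.65), the alkaline phosphatase Alpi (1.53) and the aminopeptidase Anpep (0.93), with limma adjusted p of 2.3e-05, 0.0013 and 0.048; the list mean was 5.004 and 6.02 in KO and 5.20 and 5.66 in WT by title. Lactase (Lct) and Apoc3 lay near background, and Sis read 2.79 and 4.61 in KO and 3.03 and 3.23 in WT by title. Apoa4 likewise differed mainly in KO, with 3.83 and 5.43, against 5.21 and 5.25 in WT by title. In each pair 8 of the 10 were higher with prebiotics. Fabp2, the highest of the list, read 11.53 to 11.68 and was not called (0.08, limma adjusted p = 0.52). Rbp2 differed in sign between the pairs (0.47 in KO, -0.95 in WT by title). Of 8 smooth muscle markers 3 fell (Myh11, Myl9 and Synpo2) and of 7 adipocyte markers 2 fell (Fabp4 and Lpl), while of 8 fibroblast markers 1 rose (Col1a1). These lists were not uniform. Smooth muscle markers were higher with prebiotics in 2 of 8 in KO, with Des at 0.36, and in 0 of 8 in WT by title. Fibroblast markers were higher in 5 of 8 in KO and 6 of 8 in WT by title. Pdgfra (-0.69 and -0.14) and Dpt (-0.22 and -0.16) were lower in both pairs, and Col6a1 read -0.63 in KO and 0.05 in WT by title. Of 3 tested hepatocyte markers 1 rose, the tyrosine aminotransferase Tat (0.79, limma adjusted p = 0.029), from 3.69 to 4.41 in KO and from 3.38 to 4.23 in WT by title. Of 7 B cell markers 0 were called, with list means of 3.47 and 2.84 in KO and 3.59 and 3.54 in WT by title, and of 8 macrophage markers 0, with 4.84 and 4.84 in KO and 4.26 and 4.67 in WT by title. A larger share of cells of a type and more RNA per cell cannot be told apart in bulk tissue, and the part of these markers in the P450 differences was not tested.

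**Figure D4:**
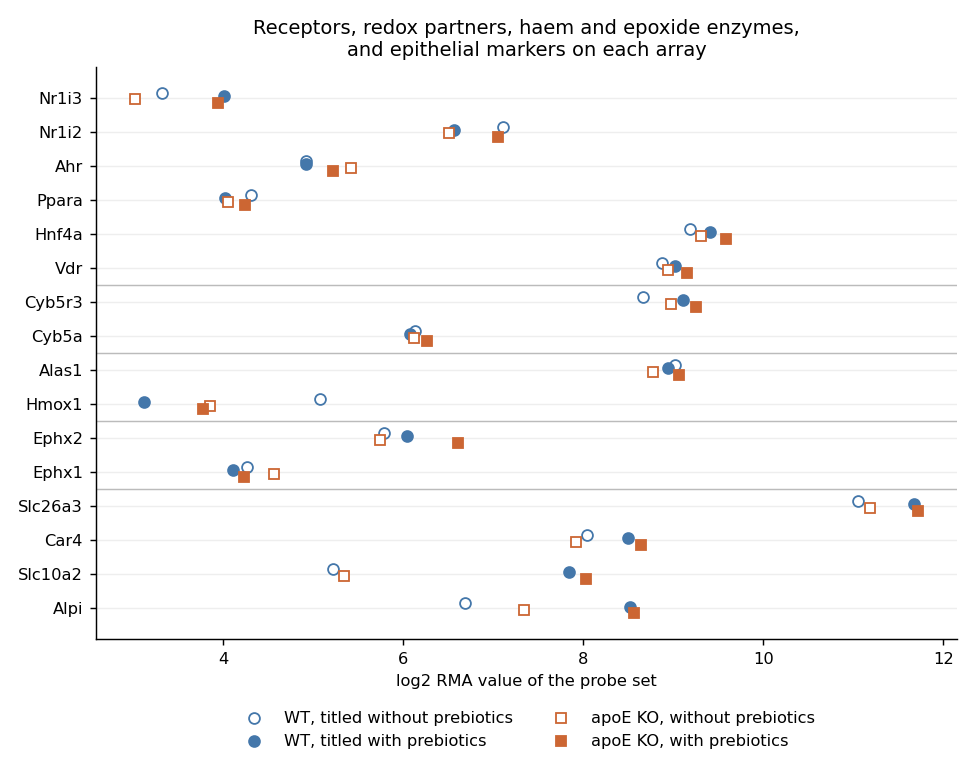
Log2 RMA values (x axis) on each of the 4 arrays for 6 receptors and regulators, 2 redox partners, 2 haem genes, 2 epoxide hydrolases and 4 epithelial markers, in blocks from top to bottom with the symbols of the array groups as circles for WT and squares for apoE KO, filled with prebiotics (WT by title). Nr1i3, Slc26a3, Car4, Slc10a2 and Alpi, among others, have both filled points to the right of both open ones, while Nr1i2 does not.

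The genotype comparison asks how the caecum without apoE differed from wild type, over both diets. Of 41 members tested 0 were called higher and 0 lower by limma (2 residual degrees of freedom), against 0% of 13083 genes higher and 0% lower; 1 member and 430 genes had an unadjusted p under 0.05. With diet as a block and WT by title, limma called 8 genes higher and 4 lower, 0 of them members. In that limma model 895 genes and 4 members had an unadjusted p under 0.05. Over the 17 expressed members the median KO minus WT difference was 0.19, against 0.02 for all expressed genes, and the range ran from -0.11 to 0.56. For 3 members both KO arrays lay above both WT arrays (Cyp2e1, Cyp2d22 and Cyp20a1), against 17% of expressed genes, and for 1 (Cyp2c65) below, against 11.6%. Cyp2e1 reached the limit for expressed genes through its KO arrays (mean 4.38, against 3.82 in WT). It is therefore no support for that count or for the top of the range. Cyp2d13 also reached the limit through its KO arrays (mean 4.36, against 3.87 in WT), so its difference is no support either. Both genes are included in the median of 0.19, which is limited likewise.

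The member at an unadjusted p under 0.05 in the model of genotype alone was Cyp2e1, which oxidises ethanol and other small molecules and ketone bodies. It read 3.89 and 3.75 in WT by title and 4.24 and 4.52 in KO, all close to the limit of 3.998. Its difference of 0.56 (SE 0.16) had a limma adjusted p of 0.9994, or 0.41 with diet as a block, and did not pass. Next in size were Cyp2d13 at 0.48, whose KO array without prebiotics lies below the WT array titled with and whose difference is 0.18 without the WT array titled without and 0.78 without the other WT array, and Cyp2d26 at 0.33, whose groups overlap likewise. At the low end stood Cyp4f40 (-0.11), Cyp2c66 (-0.11) and Cyp2d34 (-0.09), within their standard errors of 0. Markers of fibroblasts and smooth muscle also had higher values on the KO arrays, with median differences of 0.40 and 0.38 and 0 of 8 called in either list. Macrophage markers had a median difference of 0.25 (0 of 8 called) and B cell markers one of -0.36 (0 of 7 called). The part of these cells in the genotype values was not tested.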

How the data were processed

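Caecal RNA pools were measured on 1 array for each of 4 groups. The deposited values are log2 expression values; per the submitters' processing notes the authors used Affymetrix Expression Console and RMA, which subtracts background, equalises the arrays' distributions and summarises each probe set. Settings and a build are not given in the sources used here, and the log base was taken from RMA. Of 41345 probe sets 23521 had 1 gene symbol in the platform annotation, 1814 several and 16010 none. 1 gene left out by the rule is not reported here, and symbols of another form (Cyp51, Cyp2ab1, Cyp4a12a, Cyp4a12b, Cyp4a30b and pseudogenes) are no members.

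limma 3.58.1 under R 4.3.3 (lmFit, eBayes with a trend, two-sided) was run on 13083 genes whose value on some array was no lower than the median of all single-symbol probe sets there, and tested on simulated data. Each group is 1 pool, so no spread between like pools was measured. In the prebiotic model the residual is the part of the prebiotic difference that differs between genotypes. In the model of genotype alone it also holds the diet difference. For Cyp2d34 the genotype SE was 0.53 there, against 0.12 with diet as a block. The number of arrays limits the precision. Named are all expressed members, with differences for those at 2-fold, called, or among the 3 largest each way, and partner genes called or defining; differences of other members, near-median genes and uncalled markers were added after their values were seen. Members and lists were chosen with earlier results of these data known. Alternatives changed the filter, scaling, probe set summary, variance model, WT labels and arrays used. Clusters are members of 1 subfamily within 30 genes of each other in RefSeq order (GRCm38.p6). Protein sequences were not used here.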

Additional observations from a re-analysis of the deposited data

How the results depend on the processing

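The diet of the WT arrays limits these results most. With the WT pair exchanged, 0 expressed members were at 2-fold or more higher and 1 lower in that pair, 1 was at least 1.5-fold higher and 5 lower, and limma called 0 members for prebiotics. The prebiotic difference then changed sign in Cyp2c66 (0.033), Cyp2d34 (-0.18), Cyp2j6 (0.36), Cyp4b1 (0.42), Cyp4f15 (-0.20), Cyp2d13 (-0.045), Cyp2s1 (-0.13), Cyp4f40 (-0.047), Cyp39a1 (-0.021), Cyp20a1 (-0.11) and Cyp2c65 (0.017), as the exchange turns the WT difference. Without the eBayes trend 1 member was called; the cause was not tested. Under the other alternatives 4 to 7 were called: 4 with no expression filter, 5 with the filter at the 75th percentile, 6 after cyclic loess, centring on expressed genes or robust eBayes, and 7 with the mean over probe sets, which adds Cyp2s1. The number of expressed members was 20 or 13 with a limit 0.5 or 2 log2 units above the median. Genotype called 0 members under each alternative run, although with diet as a block (WT by title) limma called 8 genes higher and 4 lower among all tested, and 0 and 0 with the WT pair exchanged. With an array left out in turn, KO minus WT ran from -0.30 to 0.077 in Cyp2c66, -0.15 to 0.80 in Cyp2d26, 0.18 to 0.78 in Cyp2d13, 0.42 to 0.70 in Cyp2e1, -0.87 to 0.69 in Cyp2d34 and -0.26 to 0.039 in Cyp4f40. Each of these genotype fits keeps 1 array of a genotype, so genotype is not separated from diet in them. The prebiotic model without an array keeps no residual degree of freedom and equals the other genotype's pair. No paired analysis by replicate number was run, since each group is 1 array and the labels give no such number; the prebiotic model compares arrays within genotype, and diet as a block compares the genotypes within diet.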
